A study of Mus musculus with 2 samples.

Results

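The score-high cells described here were 1704 of the 6818 kept cells of a library from proliferative mouse urothelial organoids, and 1704 of 11714 kept cells in the whole series. They were chosen by a score over 7 genes of squamous, cornifying epithelium: Sprr3, Cnfn, Rptn, Crnn, Krt6b, Nccrp1 and Calml3. The score of a cell was the mean of ln(1 + 10000 × UMIs of the gene / UMIs of the cell), where a UMI is a tag that counts a captured RNA molecule once. The 25% of kept cells with the highest score were taken, and the other 5114 kept cells of that library are called the remaining cells. Cells were kept when they held over 800 genes and at most 12% of their UMIs from mitochondrial genes.

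Organoids were grown from normal urothelium, the epithelium that lines the bladder, of wild-type C57BL/6 mice aged 8 to 10 weeks. Proliferative organoids (P) were in complete medium, whose additions were EGF, Noggin, WNT3A, RSPO1 and the TGF-β receptor inhibitor LY2157299, and differentiated organoids (D) had been moved to a medium without these 5 additions. Each condition was 1 droplet library (10x Genomics 3′ chemistry), so that culture, library and condition cannot be told apart and no p-value was computed. How many mice and cultures stood behind each library was not given in the sources used here. P held 8194 barcodes, 28921755 UMIs and a median of 3405.5 UMIs per kept cell, and D held 6975 barcodes, 22949953 UMIs and a median of 3227.5. The libraries shared 10 cell barcodes, of which 6 were kept in both and 2 belonged to score-high cells.

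A stratified squamous epithelium renews from basal cells that sit on a basement membrane. As cells leave that layer they exchange basal keratins for suprabasal ones, tighten their junctions and build a cornified envelope, a shell of proteins such as involucrin and the small proline-rich proteins that transglutaminases cross-link under the plasma membrane. Proteases and their inhibitors then govern the shedding of the outermost cells. Normal urothelium does not cornify: its basal cells give rise to intermediate cells and to umbrella cells, which carry uroplakins. A change to a squamous type, squamous metaplasia, is a known reaction of urothelium.

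Of the 7 score genes, 3 lie with many other envelope genes in the epidermal differentiation complex, a gene cluster on chromosome 3. Crnn (cornulin) and Rptn (repetin) are fused S100 proteins, and Flg (filaggrin), a fused S100 protein that binds keratin filaments and was not part of the score, lies between them. The promoters of these 3 genes of the complex are shown beside their levels. Crnn and Rptn were used to choose the cells, so that only the level of Flg is independent of the choice, and Flg2 and Hrnr, which also lie between them, had 1 and 4 UMIs in P. Each line gives the 250 bases before the RefSeq start site on the + strand of GRCm38.p6, for Crnn chr3:93144539-93144788, for Flg chr3:93273296-93273545 and for Rptn chr3:93393449-93393698. Capitals mark matches, on either strand, to the TATA box letters TATAAA, to the AP-1 letters TGANTCA, to AACCNGTT (the GRHL factors) and to GGGNGTGG (KLF factors), and no match overlapped another.
Crnn: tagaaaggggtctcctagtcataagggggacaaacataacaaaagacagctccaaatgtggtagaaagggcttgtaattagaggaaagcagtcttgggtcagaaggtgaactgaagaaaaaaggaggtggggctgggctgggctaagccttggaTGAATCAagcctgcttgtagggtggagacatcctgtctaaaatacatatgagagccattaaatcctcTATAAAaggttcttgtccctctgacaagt
Flg: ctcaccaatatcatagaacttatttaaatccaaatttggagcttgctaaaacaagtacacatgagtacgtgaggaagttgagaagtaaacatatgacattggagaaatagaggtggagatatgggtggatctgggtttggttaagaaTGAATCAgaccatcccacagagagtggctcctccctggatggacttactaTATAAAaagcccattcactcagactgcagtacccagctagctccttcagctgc
Rptn: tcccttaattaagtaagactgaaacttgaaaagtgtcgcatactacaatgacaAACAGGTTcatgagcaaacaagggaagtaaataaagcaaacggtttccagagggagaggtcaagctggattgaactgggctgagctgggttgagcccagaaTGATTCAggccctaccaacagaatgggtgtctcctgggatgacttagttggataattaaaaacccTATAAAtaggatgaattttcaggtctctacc
Each of the 3 printed promoters held 1 TATA match and 1 AP-1 match, but the other score genes examined did not share both: the promoter of Sprr3 held 1 TATA match and no AP-1 match, and that of Cnfn held neither and 1 KLF match. The AP-1 match began 96 bases before the start in Crnn, 103 bases before it in Flg and 96 bases before it in Rptn, and the TATA match 29, 53 and 31 bases before it. The GRHL letters were found in Rptn, 197 bases before the start, and the KLF letters in none of the 3 windows. Of the 32851 RefSeq promoters of 300 bases (250 before and 50 after the start), 7.81% held the AP-1 letters, 13.6% the TATA letters, 2.09% the GRHL letters and 17.6% the KLF letters. Among genes at least 2-fold higher in the score-high cells, 280 of 393 matched a promoter by symbol, and 48 of these (17.1%) held the AP-1 letters, beside 6.21% of the 7503 matched genes tested and 5.81% of the 551 matched genes at least 2-fold lower. The TATA letters stood in 17.5%, 8.37% and 9.98% of the same sets, the GRHL letters in 3.21%, 2.31% and 1.27%, and the KLF letters in 27.9%, 26.7% and 27.8%. These matches describe letters in a window and were not tested for binding or activity.

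The score-high cells were a range of a per-cell score, and whether they form a separate cell type was not tested. No score UMI was found in 4839 kept P cells (71.0%), and these cells all scored 0. Of the score-high cells, 338 (19.8%) held 1 score UMI, 336 (19.7%) held 2, 1030 (60.4%) held 3 or more and 187 held 10 or more. A single one of the 7 genes was detected in 735 score-high cells, 2 in 638, 3 in 227 and 4 or more in the others, with all 7 in 2 cells. Crnn and Nccrp1 (a glycan-binding protein of squamous epithelia) contributed 76.4% of the score UMIs.

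**Figure D1:**
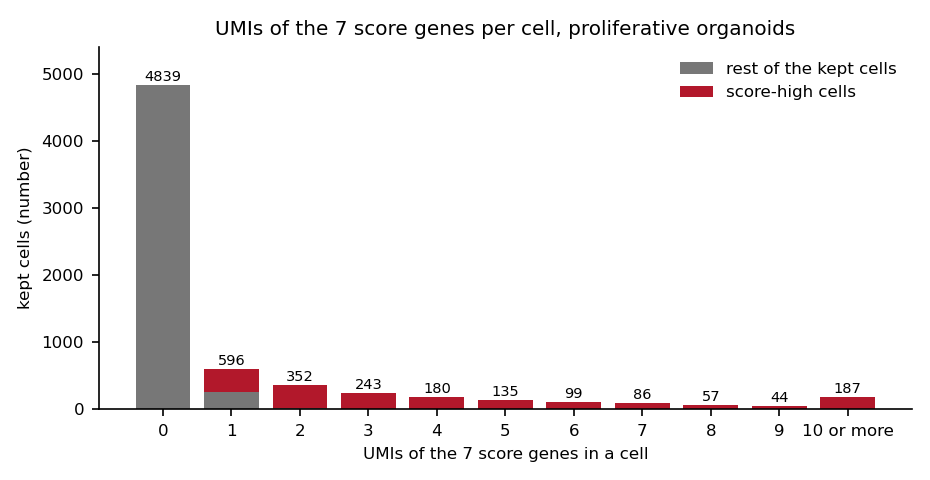
Number of kept P cells (y axis) by the UMIs of the 7 score genes that a cell held (x axis), with score-high cells in red on top of the remaining cells in grey and the total above each bar. The bar at 0 holds 4839 cells, and the bar at 1 is divided between 338 score-high and 258 remaining cells.

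Which cells with 1 score UMI were taken depended on their depth. The lowest score-high cell scored 0.179735, with 1 score UMI among 3970 UMIs, and the highest remaining cell scored 0.179709, with 1 among 3971. Score-high cells with 1 score UMI had a median of 3283.5 UMIs, whereas the 258 remaining cells with 1 score UMI had a median of 5039.5. Within 0.02 of the cut-off lay 319 cells, 190 above it and 129 below. Depth also differed over the whole set: the score-high cells had a median of 4063 UMIs (quartiles 3376.5 and 5570.75) and 1311 genes, and the remaining cells 3207 UMIs (2655 and 4005.5) and 1096 genes. The part of this depth difference in the results was not tested beyond the comparisons within a range of depth given below.

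The score UMIs numbered 8095 in the score-high cells and 293 in the remaining cells. Crnn was detected in 1143 score-high cells and Nccrp1 in 1190. Krt6b, a keratin of stressed and suprabasal keratinocytes, was detected in 446, Calml3, a calmodulin-like protein, in 187, Rptn in 84, Cnfn (cornifelin, an envelope protein) in 68 and Sprr3, a small proline-rich protein, in 37. Sprr3, Cnfn and Rptn thus marked 2.17%, 3.99% and 4.93% of the score-high cells, and Crnn and Nccrp1 67.1% and 69.8%.

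How the 7 score genes overlapped between cells is given as a description, since the rule used these genes. Of 37 cells with Sprr3, 20 (54.1%) also held Cnfn, against 1.03% of all kept P cells, and 29 (78.4%) held Krt6b, against 6.97%. Of 70 cells with Cnfn, 52 (74.3%) held Krt6b and 63 held Nccrp1, against 6.97% and 19.0% of kept cells, and of 85 cells with Rptn, 69 (81.2%) held Crnn, against 18.7%. Crnn and Nccrp1 overlapped less completely: 719 cells held both, 56.3% of the cells with Crnn and 55.5% of those with Nccrp1. When all kept P cells were divided by whether they held a UMI of the other 6 genes, Crnn stood at 273 counts per 1000000 UMIs (CPM) in the 1502 cells with one and 45.8 CPM in the 5316 without, and Nccrp1 at 319 and 41.5 CPM in the 1567 cells with one and the 5251 without. Sprr3 had 109 UMIs in the 1977 cells with another score gene and 2 in the 4841 without. Deeper cells hold more of every gene's UMIs. After each cell was thinned to 2100 UMIs, Crnn was found in 36.9% of the cells with another score gene and 7.89% of those without, Nccrp1 in 42.4% and 7.38%, Krt6b in 13.2% and 1.72%, and Sprr3 in 1.33% and 0.0584%.

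The label of cornifying squamous cells was checked against 12 squamous markers outside the score, with levels given as CPM of the UMIs summed over cells. All differences between score-high and remaining cells below are descriptions of 1 library, since the cells were chosen on their own transcripts, and intervals (exact, 95%) cover counting error only. With at least 20 UMIs over both sets, 10 of the 12 markers were measured, and 5 were at least 2-fold higher in the score-high cells, 1 was at least 2-fold lower and 4 lay between. Over all 11914 genes so measured, 5.04% were at least 2-fold higher and 12% at least 2-fold lower. Flg stood at 556 CPM in the score-high and 52.7 CPM in the remaining cells. Involucrin (Ivl) stood at 222 and 78.5 CPM, and the transglutaminase Tgm1 at 19.0 and 9.04 CPM. The log2 ratio of Tgm1 was 1.07 (0.746 to 1.39), an interval that reached below 2-fold. Krt13 and Krt4, keratins of internal squamous epithelia such as the oesophagus, stood at 1149 and 298 CPM and at 625 and 212 CPM. Over all kept D cells, Krt4 stood at 1336 CPM and Ivl at 206 CPM, so that neither was particular to the score-high cells. Krt13 stood there at 31.8 CPM, Tgm1 at 2.02 CPM and Flg at 0.0492 CPM.

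The other measured markers lay within 2-fold or lower. Krt10, the keratin of suprabasal epidermis, stood at 31.8 CPM in the score-high and 30.9 CPM in the remaining cells, and its partner Krt1 at 12.7 and 11.9 CPM. Loricrin (Lor), the main envelope protein of epidermis, was 1.60 lower on the log2 scale, at 4.39 against 13.3 CPM. Sbsn and Krtdap, both secreted by suprabasal keratinocytes, stood at 23.1 against 33.5 CPM and at 1.54 against 1.92 CPM, and Tgm3 and Sprr1b had no UMI in either set. Of 21 late cornified envelope (Lce) genes, 19 were listed at 0 and none reached 20 UMIs. Across cells, the summed squamous markers outside the score had a median of 15.9 per 10000 UMIs in the score-high and 2.85 in the remaining cells, the 6 intermediate urothelial markers 38.4 and 8.52, and the 7 basal markers 51.3 and 83.8, while the medians of the luminal and the proliferative markers were 0 in both. Such sums follow the most abundant gene: in the score-high cells Psca stood at 5069 CPM and each other intermediate marker at 541 CPM or less. The check was therefore mixed: Flg, Ivl, Tgm1, Krt13 and Krt4 were at least 2-fold higher, Krt10, Krt1, Sbsn and Krtdap lay between and Lor was lower. The interval of Tgm1 reached below 2-fold, and Ivl and Krt4 were also high over all kept D cells. The cells are called score-high cells throughout. A level summed over cells combines how many cells hold a gene and how much each holds, and shares of cells are given separately below.

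Score-high cells were compared with the remaining cells of the same organoids over all genes to show which transcripts accompanied the score. Of the 9486 genes with 100 UMIs or more in both sets together, 393 (4.14%) were at least 2-fold higher in the score-high cells, 7 of them the score genes, and 725 (7.64%) were at least 2-fold lower. The interval lay wholly past 2-fold for 273 of the higher and 343 of the lower genes. The median log2 ratio was -0.13. Ribosomal protein genes took 31.6% of the UMIs in the score-high and 37.5% in the remaining cells, and 84 of the 85 with at least 100 UMIs were lower there, with a median log2 ratio of -0.26.

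Among genes outside the score, 10 were named for the largest ratios. Psca, a surface protein of intermediate urothelial cells and other lining epithelia, stood at 5069 CPM in the score-high and 398 CPM in the remaining cells, a log2 ratio of 3.67 (3.63 to 3.71). AA467197, a gene with no established name, stood at 134 and 12.1 CPM, and Flg followed with a log2 ratio of 3.40 (3.30 to 3.50). Slurp1, a secreted Ly6 protein of keratinocytes, stood at 34.5 and 3.45 CPM, and Krt78, a suprabasal keratin, at 10.8 and 1.15 CPM. The small proline-rich genes Sprr2f (3.22), Sprr2h (3.16) and Sprr1a (3.14), the arginase gene Arg1 (3.11) and Mal, a lipid raft protein of apical transport (3.09), completed the set, with log2 ratios in parentheses. Arg1, which splits arginine into ornithine and urea, stood at 815 CPM in the score-high, 94.1 CPM in the remaining and 1.33 CPM in the D cells. Over all kept D cells, Mal stood at 564 CPM, beside 628 CPM in the score-high cells, Psca at 1742 CPM and Sprr1a at 806 CPM. The others of the 10 stood there at 5.17 CPM or less.

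The 10 genes with the largest ratios in the other direction included cell cycle genes and genes of signalling and matrix. Ccna2 and Ccnb2, cyclins of dividing cells, were lower by log2 ratios of -3.23 and -3.04, and Ckap2, a spindle protein, by -3.04. Dll1, a Notch ligand, had 10 UMIs in the score-high and 212 in the remaining cells (log2 ratio -3.29, -4.37 to -2.39). Mgp, a matrix protein, had 2 and 114 UMIs, and Col8a1, a collagen, 8 and 150. The others were Ptprz1, Ctnnal1, Bmp3 and St3gal6, with 7, 13, 5 and 8 UMIs in the score-high cells.

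**Figure D2:**
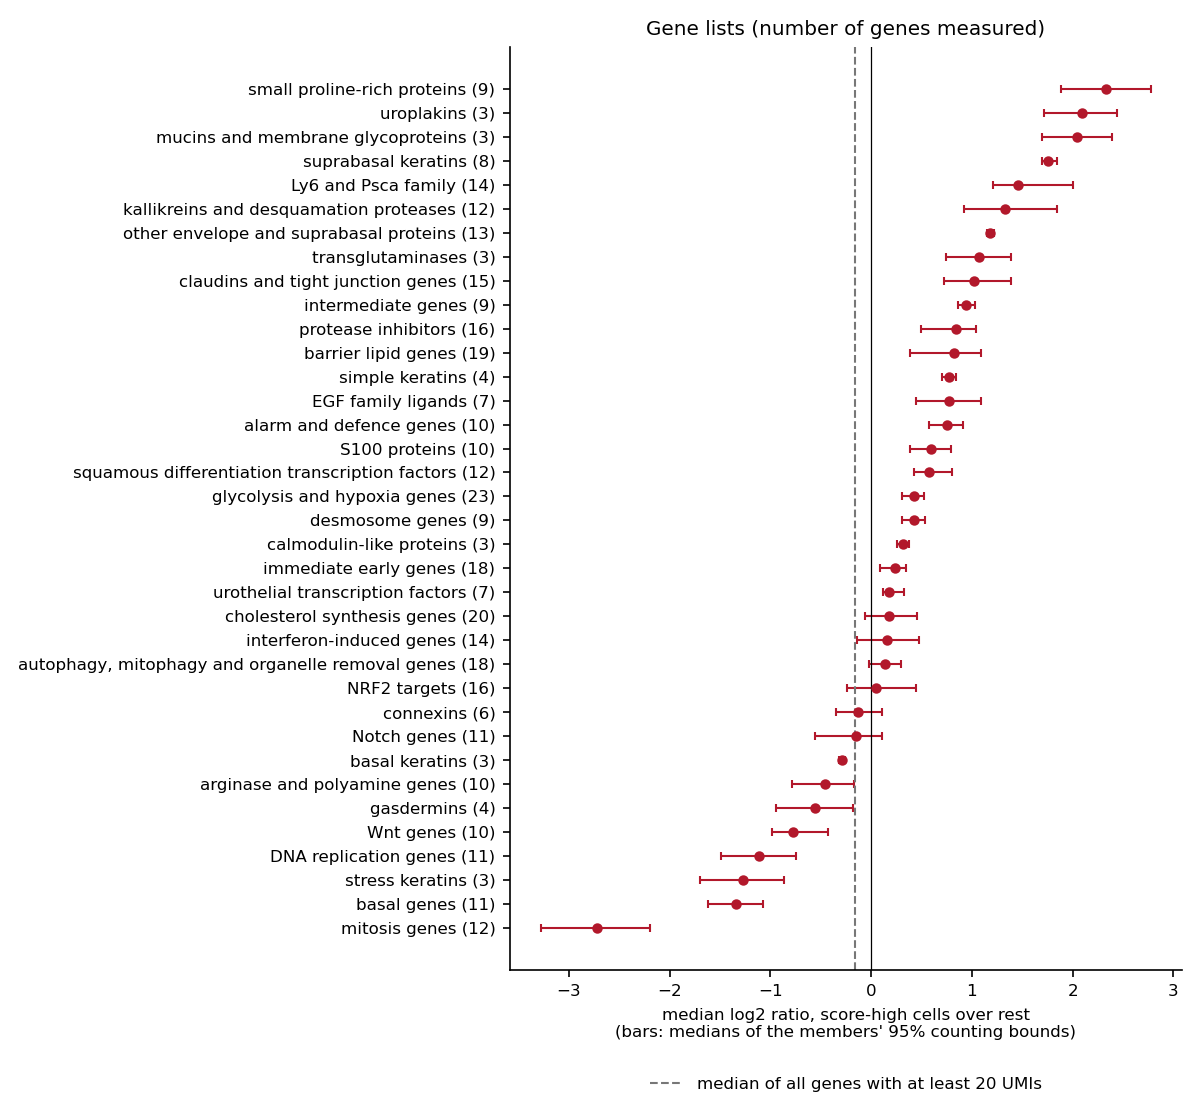
Median log2 ratio of the score-high over the remaining cells (x axis) for gene lists with at least 3 measured genes (y axis, number measured in parentheses, score genes left out), where bars run between the medians of the genes' lower and upper 95% counting bounds and the dashed line is the median of all genes with at least 20 UMIs (-0.16). Small proline-rich proteins stand highest (2.33) and mitosis genes lowest (-2.72).

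Envelope genes were described first. The counts of each list, here and below, stand beside 5.04% at least 2-fold higher and 12% at least 2-fold lower over all 11914 genes with at least 20 UMIs. Of 9 measured small proline-rich genes outside the score, 9 were at least 2-fold higher, with a median log2 ratio of 2.33 beside -0.16 for all genes with at least 20 UMIs. Sprr1a stood at 1754 and 198 CPM, Sprr2f at 248 and 26.5 CPM, Sprr2h at 40.7 and 4.55 CPM and Sprr2a3 at 777 and 344 CPM. Over all kept D cells, Sprr2a3 stood at 946 CPM and Sprr1a at 806 CPM, and Sprr2f and Sprr2h at 2.81 and 0.197 CPM. The Sprr2 genes are close copies of one another, so that their separate values are uncertain. Of 13 further envelope and suprabasal genes, 7 were at least 2-fold higher and 2 lower. Hopx, a homeodomain protein of differentiating keratinocytes, stood at 412 and 50.7 CPM, Lgals3, a galectin, at 1630 and 717 CPM, and the plakins Evpl and Ppl, which tie the envelope to keratin filaments, at 117 and 34.3 CPM and at 105 and 36.2 CPM. Tgm5 and Tgm1 were at least 2-fold higher, and Tgm2, the widely expressed transglutaminase, at 3.08 and 6.74 CPM was lower.

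Within the epidermal differentiation complex (chromosome 3, 90511034 to 93564643 on GRCm38, from S100a1 to S100a10) 80 genes were listed, 33 of them at 0, and 30 had at least 20 UMIs. Of the 27 outside the score, 17 were at least 2-fold higher, 2 lower (Lor and S100a10) and 8 between, with a median log2 ratio of 1.23. Higher and lower genes were neighbours, since Lor lay beside the Sprr2 group. S100a14 stood at 2021 and 930 CPM and S100a6, a calcium-binding protein of many cell types, at 5180 and 5028 CPM. Among S100 genes 3 of 10 measured were at least 2-fold higher and 1 lower.

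**Figure D3:**
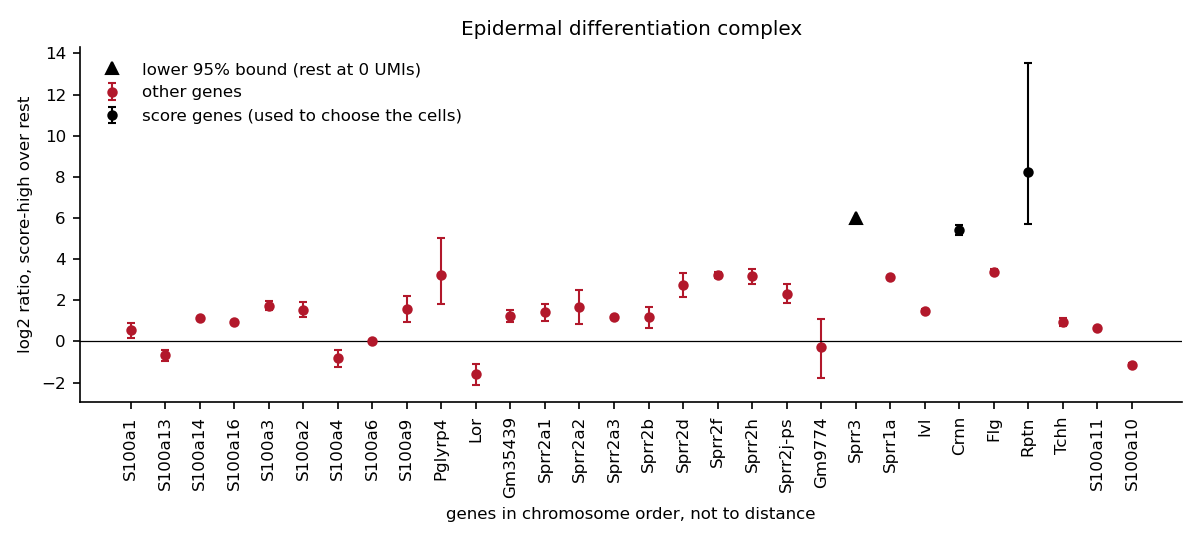
Log2 ratio of the score-high over the remaining cells (y axis) for the 30 genes of the epidermal differentiation complex with at least 20 UMIs, in chromosome order and not to distance (x axis), where bars are exact 95% counting intervals, black marks the score genes and the triangle is the lower bound for Sprr3, which had 0 UMIs in the remaining cells. The Sprr2 genes, Sprr1a, Ivl and Flg lie above 0 and Lor, S100a4, S100a13 and S100a10 below it.

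Keratins were grouped by class. Of 8 measured suprabasal keratins, 6 were at least 2-fold higher and 2 (Krt1 and Krt10) lay between, and the median log2 ratio was 1.75. Beside Krt13, Krt4 and Krt78 these were Krt80 (8.42 and 0.822 CPM), Krt23 (28.9 and 4.49 CPM) and Krt77 (5.57 and 2.63 CPM). Among the basal keratins, Krt14 stood at 493 CPM in the score-high and 2379 CPM in the remaining cells, a log2 ratio of -2.27, whereas Krt5, which pairs with it, stood at 3428 and 3583 CPM (-0.06), and Krt15 at 1756 and 2149 CPM (-0.29). Stress keratins split as well: Krt6a stood at 1089 and 283 CPM, and Krt16 and Krt17, often found with it, at 7.11 and 17.2 CPM and at 12.2 and 66.2 CPM. Krt19, a simple keratin of all urothelial layers, stood at 4510 and 1957 CPM, and Krt7 at 1696 and 1173 CPM.

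**Figure D4:**
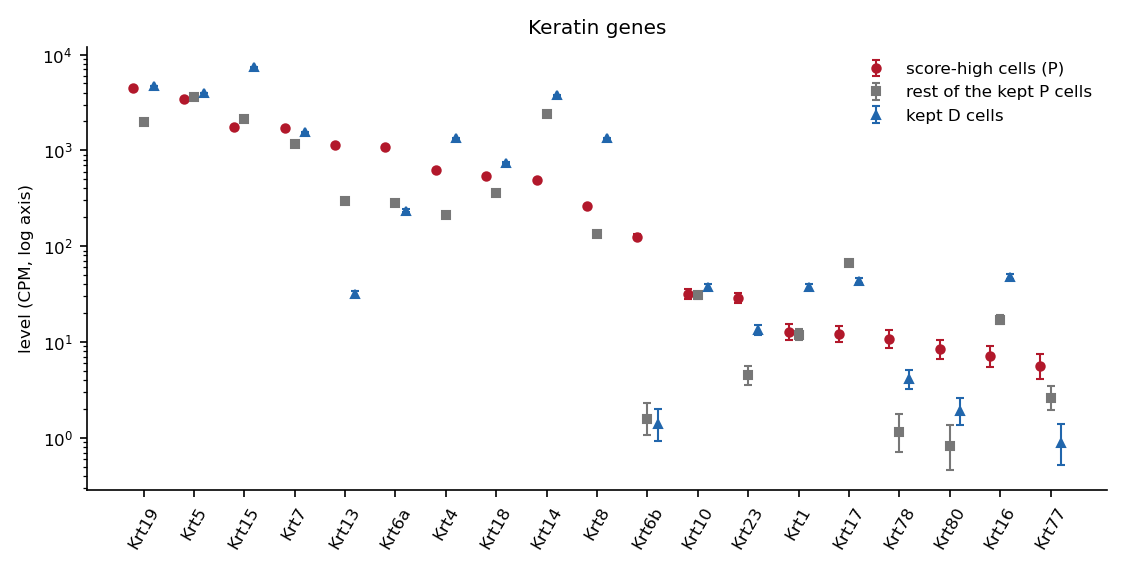
Levels of keratin genes (CPM, log axis) in score-high cells, remaining P cells and all kept D cells, with exact 95% Poisson intervals for counting error. Krt14, Krt16 and Krt17 are lower in the score-high than in the remaining cells, Krt5 and Krt10 lie nearly together, and Krt13 is far lower in D than in the score-high cells. Krt6b was a score gene, so that its level in the score-high cells follows from the choice, and it had 29 UMIs in the remaining P cells and 28 in D.

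Of 11 basal genes, many of which anchor cells to the basement membrane, 7 were at least 2-fold lower and 4 between, with a median log2 ratio of -1.34. The hemidesmosome genes Itgb4 (21.1 and 97.6 CPM), Col17a1 (91.0 and 311 CPM) and Dst (88.9 and 271 CPM), the laminin genes Lamb3 and Lama3 and the integrin Itga3 were among the 7, as was Trp63, the transcription factor of the basal layer (79.4 and 181 CPM). Itga6, whose product CD49f marks the organoid-forming cells of this system, stood at 95.7 and 166 CPM, and Cd44 was close to equal, with a log2 ratio of -0.19. All 9 intermediate genes had ratios above 0, and Psca, Cldn7, Cldn4 and Elf3 were at least 2-fold higher.

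Cells in division were rarer among the score-high cells. All 12 mitosis genes were at least 2-fold lower, with a median log2 ratio of -2.72 (-4.23 when the top 10% by score were compared), and Top2a stood at 12.8 and 64.4 CPM and Mki67 at 8.06 and 33.0 CPM. Of 11 measured DNA replication genes, 7 were at least 2-fold lower (Mcm6, 4.86 and 14.8 CPM) and 4 lay between, among them Pcna (7.59 and 9.87 CPM). To compare shares of cells at 1 depth, each cell was thinned to 2100 UMIs and shallower cells (14 score-high and 166 remaining) were left out. At least 2 mitosis genes were then found in 21 of 1690 score-high cells (1.24%, exact binomial interval 0.771 to 1.89%) and in 314 of 4948 remaining cells (6.35%, 5.68 to 7.06%), and without thinning in 1.82% and 7.35%. The share of score-high cells was 0.474% when only cells with 3000 to 5000 UMIs were scored, 0.506% without the 6% of cells with the highest doublet score, 0% for the top 10% by score and 5.03% when 1 mitosis gene was enough. Shares of the remaining cells were not computed under these settings, so that 6.35% is no matched value for them. In 4 equal groups of the score-high cells, from lowest to highest score, the counts were 9 of 426, 7 of 418, 5 of 425 and 0 of 421. The last has an exact binomial upper bound of 0.872%.

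Free RNA can give UMIs to cells that do not express a gene. Cycling remaining cells were taken as the cells that should lack squamous transcripts. They lay below the cut-off by the rule, since the 21 cycling score-high cells were left out, so that their shares are not independent of the score. Before thinning they had a median of 4027.5 UMIs, beside 4074.5 for the thinned score-high and 3252 for the thinned remaining cells. After thinning, Flg was found in 676 of 1690 score-high cells (40.0%), in 270 of 4948 remaining cells (5.46%) and in 3 of 314 cycling remaining cells (0.955%). Psca was found in 81.4%, 19.8% and 11.5% of the same cells. Both genes were found in larger shares of the remaining cells than of the cycling ones. UMIs of both genes thus lay on both sides of the cut-off, and how much of them was free RNA was not tested. At least 1 uroplakin UMI was found in 98 score-high cells (5.80%, 4.73 to 7.02%), in 73 remaining cells (1.48%, 1.16 to 1.85%) and in 2 of 314 cycling remaining cells (0.637%, 0.0772 to 2.28%), and without thinning in 10.6% of score-high and 2.41% of remaining cells. With at least 2 uroplakin UMIs required, the thinned share of score-high cells was 1.54%, and that of the remaining cells was not computed. Uroplakins, the plaque proteins of umbrella cells, stayed low in level: Upk1a stood at 25.7 CPM in the score-high, 6.03 CPM in the remaining and 477 CPM in the D cells.

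The kept P cells were ordered in 6 steps: cells without a score UMI, cells with one but below the cut-off, and the score-high cells in 4 equal groups from low to high score. Psca stood at 312, 1278, 1959, 2966, 4862 and 9826 CPM in these steps, and Flg at 41.6, 166, 178, 347, 502 and 1117 CPM. Sprr1a stood at 165, 537, 831, 1116, 1776 and 3095 CPM. These 3 genes were higher at each step than at the one before, whereas Krt78 stood at 0.782, 4.91, 0.565, 5.46, 15.6 and 19.3 CPM and was lower in the lowest group than in the cells below the cut-off. For Psca, Flg and Sprr1a, both the cells just below and the lowest group above the cut-off lay between the extremes. Krt4 reached 568 CPM below the cut-off and 511, 642, 624 and 698 CPM in the 4 groups, so that it differed little among cells with any score UMI. Krt14 stood at 2535 CPM in cells without a score UMI, at 793 CPM below the cut-off and at 800, 385, 475 and 373 CPM in the 4 groups. Krt15 stood at 2123 and 2414 CPM in the first steps and at 2147, 2313, 1607 and 1046 CPM in the 4 groups, lower in the upper 2 of them, while Krt5 stayed between 3119 and 3828 CPM. Of 9 small proline-rich genes, 6 were higher in each of the 4 groups than in the one before and 9 were highest in the top group, and of 11 basal genes 10 were highest in the lowest of the 4 groups. The cells were ordered by their own transcripts, and these levels carry no test.

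**Figure D5:**
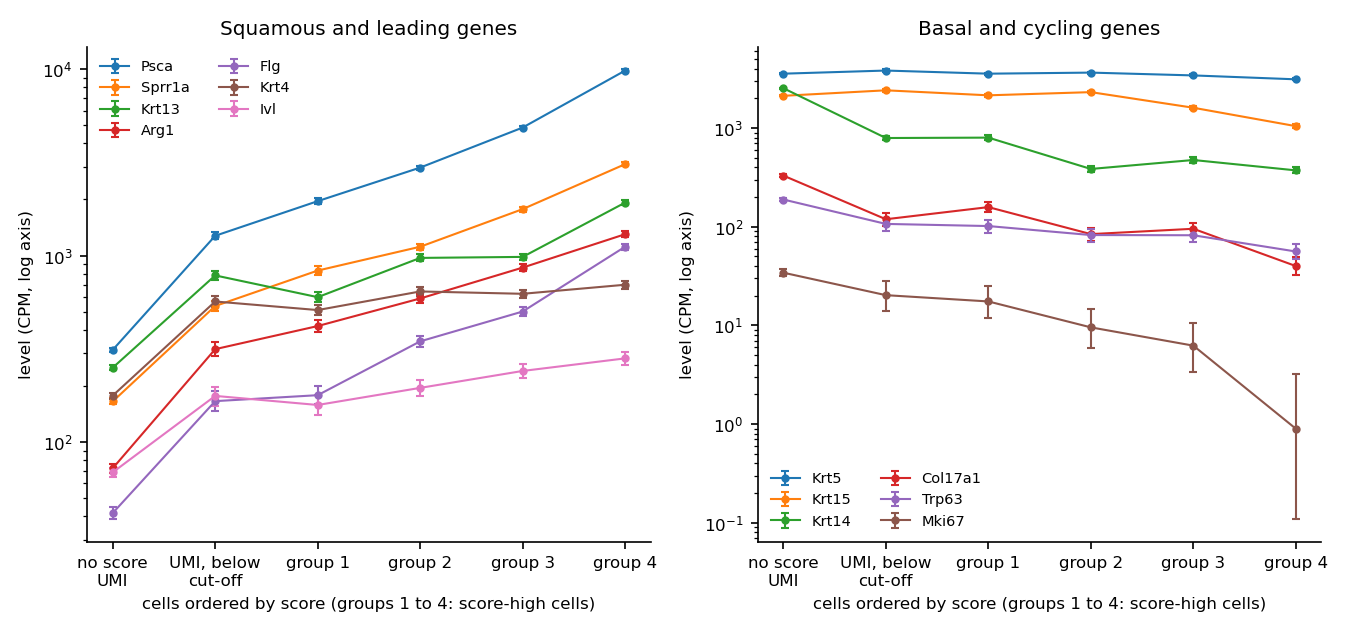
Levels (CPM, log axis) of squamous and leading genes on the left and of basal and cycling genes on the right in 6 steps of the score (x axis), with exact 95% Poisson intervals. Psca runs from 312 to 9826 CPM and Flg from 41.6 to 1117 CPM, whereas Krt5 stays between 3119 and 3828 CPM and Mki67 runs from 34.2 to 0.898 CPM.

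Score-high cells differed among themselves. Flg was found in 49.3% of them, and the 10% of cells with most Flg UMIs held 54.0% of all. Krt14 was found in 40.6%, with 71.3% of its UMIs in 10% of the cells, and Krt13 in 56.3%, with 59.4%. Krt5 was found in 96.8% with 29.8% of its UMIs in 10% of them. Sprr2f was found in 9.51% of the cells, with up to 119 UMIs in a cell, and Gsto1, a glutathione transferase, in 99.4%.

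Score-high cells with and without a given score gene were compared, and the genes named here were chosen after their values were seen. Cells without that gene were score-high only through other score genes. These contrasts are therefore not independent of the score and are descriptions. In the 37 cells with Sprr3, Sprr2f stood at 1868 CPM, beside 196 CPM in the other 1667 score-high cells (log2 ratio 3.25, 3.10 to 3.40), and Krt23 at 222 and 22.8 CPM. In the 68 cells with Cnfn, Sprr2f stood at 1488 and 172 CPM and Sprr2d at 82.6 and 8.80 CPM. In the 446 cells with Krt6b, Krt13 stood at 2202 CPM beside 683 CPM, and Krt1 at 26.7 and 6.50 CPM. In the 84 cells with Rptn, Prdm1, a transcription factor of terminal keratinocyte differentiation, stood at 37.0 and 11.4 CPM, and Ppbp, a chemokine, at 514 and 111 CPM. In the 187 cells with Calml3, Krt17 stood at 29.9 and 9.36 CPM and AA467197 at 287 and 109 CPM. In the 1190 cells with Nccrp1, Flg stood at 674 and 205 CPM and Slurp1 at 44.4 and 5.17 CPM, and Agr2, a protein of secretory cells, at 12.4 and 30.1 CPM. Depth differed in each of these contrasts, and its part was not tested. Cells with Sprr3 had a median of 5573 UMIs and those without it 4039. The medians with and without the gene were 5618 and 4004 for Cnfn, 4569 and 4041 for Rptn and 4641.5 and 3899 for Krt6b. They were 5119 and 3967 for Calml3 and 4361.5 and 3665.5 for Nccrp1.

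Proteases of shedding were compared with their inhibitors. Of 12 measured kallikreins and desquamation proteases, 9 were at least 2-fold higher, 1 lower and 2 between. The lower gene was Klk8 (0.711 and 1.42 CPM), with only 6 UMIs in the score-high cells, so that its ratio is uncertain. The higher genes were mainly membrane serine proteases: Prss27 stood at 45.3 and 6.14 CPM, Tmprss11e at 91.4 and 23.8 CPM, Tmprss11g at 83.3 and 27.3 CPM and Tmprss11d at 34.3 and 9.70 CPM. Kallikreins of the epidermis were hardly measured, since of the 22 genes 10 had under 20 UMIs. Among 16 protease inhibitors, 7 were at least 2-fold higher, including Spink5, the inhibitor of epidermal kallikreins (33.0 and 3.95 CPM), Csta1, a cysteine protease inhibitor of the envelope (888 and 253 CPM) and Serpinb11 (53.6 and 13.4 CPM), 2 were lower, Slpi and Serpinb2, and 7 lay between.

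Junction genes were grouped by type. Of 15 claudins and tight junction genes, 8 were at least 2-fold higher and none 2-fold lower, with a median log2 ratio of 1.02. Cldn1, the sealing claudin of epidermis, stood at 12.3 and 2.90 CPM, Cldn23 at 33.4 and 8.55 CPM, Cldn4 at 210 and 81.0 CPM and occludin (Ocln) at 30.3 and 11.9 CPM. The connexins Gjb6 and Gjb2, of gap junctions in stratified epithelia, stood at 11.3 and 1.81 CPM and at 42.5 and 11.9 CPM, while Gja1 stood at 167 and 189 CPM. Desmosome genes differed less: 1 of 9 was at least 2-fold higher (Dsc2, 57.4 and 28.2 CPM), and Dsp stood at 403 and 291 CPM. Of 14 genes of the Ly6 and Psca family, 10 were at least 2-fold higher, and Ly6d stood at 5349 and 2457 CPM and Lypd3 at 219 and 66.2 CPM.

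Lipid genes of the barrier were partly higher. Of 19 measured, 8 were at least 2-fold higher and none 2-fold lower, among them the ceramide genes Sptlc3 (14.2 and 2.47 CPM) and Cers3 (14.8 and 5.65 CPM), the epidermal lipase Lipk (33.7 and 7.29 CPM) and Abhd5 (54.3 and 26.8 CPM). Cholesterol synthesis genes differed less than 2-fold in 20 of 20 cases.

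Of 12 transcription factors of squamous differentiation, 5 were at least 2-fold higher: Prdm1 (12.9 and 1.86 CPM), Grhl1 (27.6 and 7.78 CPM), Grhl3 (23.2 and 8.66 CPM), Zfp750 (83.2 and 38.5 CPM) and Ovol1 (13.9 and 6.58 CPM). Klf4, a barrier factor, stood at 198 and 119 CPM, and the C/EBP factors Cebpa and Cebpb at 52.6 and 47.8 CPM and at 67.6 and 100 CPM. Among urothelial factors, Pparg stood at 23.9 and 6.80 CPM and Elf3 at 348 and 155 CPM, while Klf5, Foxa1, Grhl2 and Gata3 had log2 ratios between -0.21 and 0.18.

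Signalling genes were grouped by pathway. Of 11 Notch genes, none was 2-fold higher and 4 were lower: the ligands Dll1 and Jag2 (10.9 and 48.0 CPM), the receptor Notch1 (66.3 and 148 CPM) and Lfng. Notch3 stood at 35.4 and 22.8 CPM, and Hes1, a Notch target, at 780 and 687 CPM. Of 10 Wnt genes, 4 were at least 2-fold lower, among them Wnt10a (6.99 and 44.8 CPM) and the feedback gene Axin2 (0.711 and 4.60 CPM). Among EGF family ligands, Btc, Areg (149 and 59.9 CPM) and Hbegf (137 and 57.6 CPM) were at least 2-fold higher and Nrg1 lower. Of the 10 arginase and polyamine genes measured, Arg1 and Sat1 (1686 and 741 CPM) were at least 2-fold higher, and 4 were lower, among them Slc7a1, which imports arginine (11.6 and 30.9 CPM), and Oat (12.7 and 31.7 CPM), and 4 lay between.

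The remaining lists covered metabolism, stress and defence. Of 23 glycolysis and hypoxia genes, 21 differed less than 2-fold. Most of all 11914 genes with at least 20 UMIs did so too, with 5.04% higher and 12% lower, so that such counts do not set a list apart. Ankrd37 stood at 135 and 49.3 CPM and Car12 at 19.4 and 80.3 CPM. Immediate early genes differed less than 2-fold in 18 of 18 cases. Among NRF2 targets, Gsto1 stood at 8530 and 2138 CPM and Gclm at 57.0 and 141 CPM, 3 of 16 being at least 2-fold higher and 2 lower. Of 18 autophagy and organelle removal genes, Dnase1l2 and Trex2, nucleases of cornifying cells, were at least 2-fold higher at 3.08 and 0.658 CPM and at 2.49 and 0.603 CPM. Among the 10 alarm and defence genes measured, Il33 (51.9 and 21.8 CPM) and Il18 (44.9 and 20.4 CPM) were at least 2-fold higher and 3 lower. Of 14 interferon-induced genes, 3 were at least 2-fold higher and 1 lower. Of 4 gasdermins, 1 was lower (Gsdme), and of 3 mucins and membrane glycoproteins, 3 were higher, led by Ceacam1 (23.6 and 5.21 CPM) and Muc15 (24.2 and 5.87 CPM).

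Listed markers of other cell types were near 0, apart from Cd68. Fibroblast markers summed to 0.830 CPM in the score-high and 2.58 CPM in the remaining cells, endothelial markers to 2.13 and 6.58 CPM, hair follicle markers to 0.711 and 0.438 CPM, and erythroid markers had no UMI. Leukocyte markers had 284 and 292 UMIs, and only Cd68, a lysosomal protein that epithelial cells also make, reached 20 UMIs among 8 (32.6 and 14.8 CPM).

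Depth was then held within a range. Among the 3375 kept P cells with 3000 to 5000 UMIs, the top 25% by score were 843 cells, and their median log2 ratios were 2.27 for small proline-rich genes, 1.57 for suprabasal keratins, -1.66 for basal genes and -3.83 for mitosis genes. Krt10 and Krt1 lay on the other side of 0 there, with log2 ratios of -0.60 and -0.53.

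Cells with a score this high were few in the differentiated organoids. Of 4896 kept D cells, 59 (1.21%, exact binomial interval 0.919 to 1.55%) reached the lowest score of the score-high P cells, and with the top 20% or 30% of P cells taken the share was 0.449% or 2.37%. The top 30% setting could take only the 1979 of 6818 P cells that held a score UMI. After thinning to 2100 UMIs, a score UMI was found in 1504 of 6638 P cells (22.7%, 21.7 to 23.7%) and in 56 of 4417 D cells (1.27%, 0.959 to 1.64%), beside 15 of 335 cycling P cells (4.48%, 2.53 to 7.28%). The cycling P cells included 21 score-high cells and came from a library with 8388 score UMIs in kept cells against 157 in D, so that their share is no background level for D. As a description of cells that the score itself chose, Sprr3 had 40 UMIs in the 59 D cells and 15 in the other D cells, and stood at 173 CPM in the 59 cells and 13.2 CPM in the P score-high cells, beside 21.7 and 341 CPM for Crnn and 34.7 and 389 CPM for Nccrp1. Flg had 0 UMIs and Arg1 1 UMI among the 230825 UMIs of the 59 cells, while Psca stood at 4722 CPM beside 5069 CPM in P and Sprr1a at 1828 CPM beside 1754 CPM. Upk1b stood at 511 CPM in the 59 cells, 376 CPM in the other D cells and 9.48 CPM in the P score-high cells, and Krt14 at 2582, 3750 and 493 CPM. These are values of 1 library each, set side by side.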

How the data were processed

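Single-cell RNA was measured in 1 library of proliferative and 1 of differentiated urothelial organoids. The authors demultiplexed with bcl2fastq 2.19.0 and counted with Cell Ranger 3.0.2 against GRCm38/mm10, per the submitters' processing notes, and deposited raw UMI counts per gene and barcode with no normalization. The 3′ reads of 1 gene could be split with close copies such as the Sprr2 genes. Cells were kept by the study's stated filter, over 800 genes and at most 12% mitochondrial UMIs. This left 6818 cells in P, slightly fewer than the study reports, and 4896 in D, the number it reports. Gene positions came from GENCODE M21 on the same build and promoters from RefSeq (GRCm38.p6). The members of the set, the gene lists and the rules were chosen with earlier results of these data known.

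Levels are UMIs of all cells of a set added up, as counts per 1000000 UMIs (CPM) with exact Poisson intervals. Ratios carry exact conditional binomial intervals and shares Clopper-Pearson intervals, all at 95% and for counting error only. Genes needed 100 UMIs over both sets, and genes of the 44 lists (522 different genes, 3 of them not in the files) needed 20. The text names the 7 score genes, up to 6 members of each list by UMI total and ratio (further list members were added after their values were seen, and 1 list member is not reported here by name), and the 10 other genes that ranked highest and the 10 that ranked lowest by log2 ratio (0.5 UMI added). Genes compared within the score-high cells fell outside this rule and were chosen after their values were seen. Levels along the score were planned in 10 equal groups, which could not be formed because 71.0% of cells scored 0, and 6 steps replaced them. Shares were compared after thinning each cell to 2100 UMIs. No clustering was done. Scrublet as run in scanpy 1.11.5 (expected rate 6%) marked 0 of 6818 cells, so no doublets were removed. Ratios and their intervals were checked on counts simulated from the Poisson model that they assume, so that spread between cells was not covered. Thinning was checked on kept P cells. Python 3.11.15, numpy 2.4.6, scipy 1.17.1 and pandas 2.3.3 were used.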

Additional observations from a re-analysis of the deposited data

Results flagged for a closer look

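The 1376 barcodes of the P library that the filter left out, which no comparison above used, held 369 score UMIs. Their level was 185 per 1000000 UMIs outside mitochondrial genes (exact Poisson interval 167 to 205). All kept P cells held 334 per 1000000 (327 to 341), so that the left-out barcodes lay below them. A score UMI was found in 172 of the left-out barcodes (12.5%, exact binomial interval 10.8 to 14.4%) at a median of 1657 UMIs per barcode. The score-high cells held 1025 per 1000000 and the remaining kept cells 17.0 per 1000000 (15.1 to 19.1). The score itself divided the kept cells into these sets, so that neither is a comparison level for the left-out barcodes.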

How the results depend on the processing

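Results were recomputed under 20 other settings, 4 of which (the top 10%, cells with 3 or more score UMIs, the 3000 to 5000 UMI range and the doublet score) were chosen after seeing the data. The top 30% setting took 1979 of 6818 cells and the thinned score 1504 of 6638, in each case every cell with a score UMI. Of 539 recomputed list medians 536 kept their sign, the exceptions being NRF2 targets, connexins and cholesterol synthesis genes, and of 285 values of named genes 277 did, the exceptions being Krt10, Krt1 and Hes1 (-0.056 for the top 10% of cells beside 0.18). The cause of each difference below was not tested. The 393 higher and 725 lower genes became 600 and 1431 with at least 20 UMIs and 2308 and 4627 with at least 1, where more genes of few UMIs were tested, and 1132 genes were lower for the top 10%. The share of D cells at the cut-off (1.21%) was 0.449% for the top 20%, 2.37% for the top 30%, 0.0204% for the top 10% and 0.450% under the stricter filter (over 1000 genes per cell, 10% mitochondrial). The median UMIs of score-high cells (4063) were 4332, 4260 and 4357 for the top 20%, 30% and 10%, 4151 with the thinned score, 4541 under the stricter filter, 3970 without the deepest 5%, 4611.5 with 3 or more score UMIs and 3852 within the UMI range. The suprabasal keratin median (1.75) was 1.96 for the top 30%, 1.64 for the top 10%, 1.55 with the thinned score, 1.86 and 1.58 under the looser (over 500 genes, 20%) and the stricter filter, 1.87 without the deepest 5%, 1.63 when scaled without mitochondrial and ribosomal protein genes, 1.92 as a mean over cells, 2.16 with 3 or more score UMIs and 1.57 within the UMI range. Mitosis genes (-2.72) had -4.23 for the top 10%, -3.83 within the UMI range and -3.81 without the 6% of cells with the highest doublet score, and basal genes (-1.34) -1.66 and -1.68 in the last 2. The cycling share of score-high cells (1.24%) was 0% for the top 10%, 0.474% within the UMI range, 0.506% without the highest doublet scores and 5.03% when 1 mitosis gene was enough. The cycling share of the remaining cells was not computed under these settings. The uroplakin share (5.80%) was 10.6% without thinning and 1.54% with 2 UMIs needed. The planned removal of called doublets was not run because none was called. No paired analysis was possible because each condition had 1 library. With 1 library, depth limits only the counting error.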
